A study of Homo sapiens with 9 samples.

Results

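The suppressor of cytokine signalling (SOCS) family consists of SOCS1 to SOCS7 and CISH. Its transcripts were described here in KGN cells, an established line derived from a human ovarian granulosa cell tumour. The members were the rows of the deposited count table with these 8 gene symbols. All 8 were found among the 15983 genes of the table, and all 8 were among the 12665 genes that passed the filter on low counts. Wild-type KGN cells had been fasted for 12 h and then cultured for 72 h in solvent (the control) or in insulin at 0.5 µg/ml or 1 µg/ml, and each group holds 3 RNA-seq libraries. All groups shared the cell line, the fasting step and a maintenance medium of DMEM with 10% fetal bovine serum. Whether the 3 libraries of a group are independent cultures is not stated in the labels. The p-values below therefore reflect the spread among these libraries, which may be technical. The family was chosen by a measured value, the lower SOCS3 count at 1 µg/ml than at 0.5 µg/ml insulin. No test is therefore given for SOCS3 or for any comparison of a member between the doses, and those values are descriptions.

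Cytokine receptors that lack a kinase of their own signal through Janus kinases (JAKs), which phosphorylate STAT transcription factors. STATs switch on CISH, SOCS1, SOCS2 and SOCS3 in many cell types, and the proteins then dampen the receptor that induced them, a classical negative feedback loop. Each SOCS protein has a central SH2 domain, which binds phosphotyrosine, and a C-terminal SOCS box, which recruits elongins B and C and cullin 5 so that bound targets are ubiquitinated. SOCS1 and SOCS3 also carry a short region that inhibits JAKs directly. Several members bind the insulin receptor or its substrates, and SOCS1 and SOCS3 can send IRS1 and IRS2 for degradation. In granulosa cells, JAK-STAT signalling serves prolactin, growth hormone, leptin and cytokines of the interleukin-6 family.

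Upstream sequence is shown for the members whose windows matched a motif of the pathway that drives the loop. Windows of 250 bases before the annotated start were taken from RefSeq (GRCh38.p14) and were available for 5 of the 8 members, with 2 windows for SOCS3. They were searched on both strands for TTCNNNGAA, the core letters that STAT dimers prefer, and for GAAA, any 2 bases and GAAA again, the repeat found in interferon-response elements. CISH held 4 matches to TTCNNNGAA, which began 241, 230, 129 and 112 bases before the start. SOCS1 held 1 match to the GAAA repeat, 113 bases before the start. Capitals mark the matches in the stretches below, which lie on the minus strand and are written 5′ to 3′.
CISH, chr3:50611991-50612020: ccgttTTCCTGGAAagTTCTTGGAAatctg
CISH, chr3:50611858-50611907: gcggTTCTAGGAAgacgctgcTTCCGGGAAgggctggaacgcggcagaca
SOCS1, chr16:11256288-11256337: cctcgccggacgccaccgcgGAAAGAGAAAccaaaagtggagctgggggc
The first CISH stretch lies in an annotated exon of the neighbouring gene MAPKAPK3, which runs on the other strand, and the other stretches lie in no annotated exon. No printed match overlapped another. TTCNNNGAA occurred in 2306 of 35116 RefSeq windows of this length (6.57%), and 10 windows (0.0285%) held 3 or more matches. The GAAA repeat occurred in 1061 windows (3.02%). The windows of SOCS3, SOCS4 and SOCS6 held neither string. Those of SOCS3 lie within chr17:78359618-78359917, inside the gene position given below, and within chr17:78360876-78361175, upstream of it without adjoining it. The bases just before the SOCS3 start in that position, chr17:78360077, were therefore not searched. Whether they hold either string was not tested. A match describes letters and is no evidence of a bound factor.

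All 8 members were detected in every library, and SOCS2 and CISH had the lowest levels per length. FPKM, counts scaled by gene length and library total, were compared here, since only a level per length can be set between genes. SOCS5, a regulator of the epidermal growth factor receptor, was at 7.66 ± 0.492 FPKM (mean ± SD, n = 9 libraries). SOCS7, an adaptor that binds signalling proteins of the insulin and prolactin pathways, followed at 6.27 ± 0.157 FPKM. SOCS6, which binds the receptor KIT and insulin receptor substrates, was at 6.02 ± 0.247 FPKM, and SOCS3 at 5.56 ± 0.827 FPKM. SOCS1 was at 3.80 ± 0.712 FPKM and SOCS4, a close relative of SOCS5, at 3.62 ± 0.224 FPKM. The lowest levels were those of the STAT5-responsive genes SOCS2, at 1.38 ± 0.127 FPKM, and CISH, at 0.507 ± 0.117 FPKM. Among the tested genes, SOCS5 stood at the 53.1st percentile of mean FPKM and CISH at the 9.15th.

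Neighbours in this order were compared within libraries, as a description with no test. In FPKM, SOCS5 exceeded SOCS7, SOCS3 exceeded SOCS1, SOCS4 exceeded SOCS2 and SOCS2 exceeded CISH in 9 of 9 libraries. SOCS7 exceeded SOCS6 in 6 of 9 libraries, SOCS6 exceeded SOCS3 in 6 of 9 and SOCS1 exceeded SOCS4 in 5 of 9, so these neighbours changed places. The order also depends on the gene length. The deposited FPKM imply a length of 4941 bases for SOCS5, where the exons of GENCODE 29 cover 7598 bases. Per GENCODE exon length, an alternative chosen after seeing the data, SOCS6 (6.22 ± 0.255 CPM per kilobase), SOCS7 (6.003 ± 0.151) and SOCS3 (5.75 ± 0.855) stood above SOCS5 (4.98 ± 0.320). SOCS4 (3.63 ± 0.225) then stood above SOCS1 (2.62 ± 0.491), and SOCS2 (1.22 ± 0.113) and CISH (0.219 ± 0.0506) were lowest under both lengths.

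**Figure D1:**
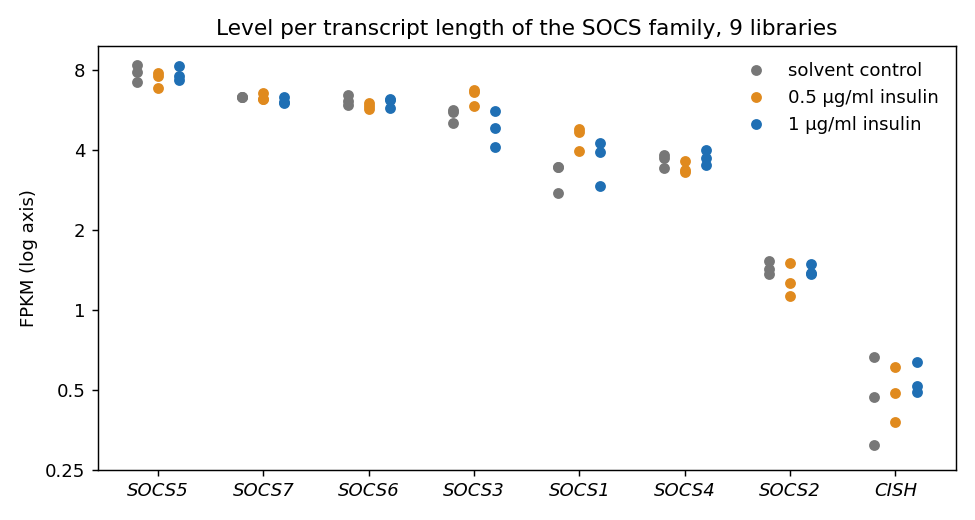
FPKM (log axis) of the 8 SOCS family genes, in order of mean level, in the 3 solvent control, 3 libraries at 0.5 µg/ml insulin and 3 at 1 µg/ml insulin, with 1 point per library. SOCS5 lies highest at a mean of 7.66 FPKM and CISH lowest at 0.507 FPKM, and the points of SOCS3 and SOCS1 spread more widely than those of SOCS4 to SOCS7.

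Depth was alike in the groups. Libraries held 18965722 to 20446405 counts in the control group, 19508466 to 20422534 at 0.5 µg/ml and 19887010 to 20208576 at 1 µg/ml insulin. The edgeR quasi-likelihood test with Benjamini-Hochberg adjustment called 0 of 12665 genes (percent called 0) at an adjusted p under 0.05 in each comparison. At an unadjusted p under 0.05 there were 770 genes (6.08%) for 0.5 µg/ml insulin against control, 298 (2.35%) for 1 µg/ml against control and 714 (5.64%) for 1 µg/ml against 0.5 µg/ml. DESeq2, run on 15981 genes, called 0 genes in each comparison, with 573, 173 and 487 genes at an unadjusted p under 0.05 in the same order. Without 1 library, the first of these edgeR counts was 1333 (control library 1) or 413 (control library 3), the second 490 (control library 1) and the third 454 (library 3 at 1 µg/ml), and no other library moved a count by more than 1.5-fold. Leaving out library 3 of the 0.5 µg/ml group gave 1 called gene against control and 1 between the doses, and leaving out its library 1 gave 2 between the doses. Both comparisons with control use the same control libraries.

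SOCS3 was highest at 0.5 µg/ml insulin and lowest at 1 µg/ml. SOCS3 inhibits signalling by the interleukin-6 receptor subunit gp130 and by the leptin receptor, and lies on chromosome 17 (hg38 chr17:78356778-78360077, minus strand). In CPM, counts scaled by the library total, it had 15.7, 16.0 and 14.3 in control libraries 1 to 3, 19.1, 16.5 and 18.7 at 0.5 µg/ml, and 13.7, 11.6 and 15.9 at 1 µg/ml. All 3 libraries at 1 µg/ml lay below all 3 at 0.5 µg/ml, and library 3 at 1 µg/ml lay among the controls. These values rest on 234 to 383 counts per library. In bulk RNA, fewer cells expressing a gene and less of its RNA per cell cannot be told apart.

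Between the doses, SOCS3 averaged 13.7 ± 2.12 CPM at 1 µg/ml and 18.1 ± 1.39 CPM at 0.5 µg/ml insulin (SD, n = 3 each), a fitted ratio of 0.752. On the log2 scale the difference was -0.41. This is the contrast that chose the family, and 616 of all tested genes (4.86%) were also lower at 1 µg/ml without overlap. Against the control mean of 15.3 ± 0.933 CPM, the fitted ratio was 1.19 at 0.5 µg/ml and 0.894 at 1 µg/ml. These ratios share libraries with the contrast that chose the family and are descriptions too. The 3 libraries at 0.5 µg/ml lay above the 3 controls and those at 1 µg/ml overlapped them.

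SOCS1, the member that most directly blocks JAKs in interferon signalling, had the highest fitted fold of the other 7 members in both comparisons with control. Its single-exon gene lies at chr16:11254405-11256200 on the minus strand. SOCS1 had 4.27, 3.41 and 4.26 CPM in control libraries 1 to 3, 5.93, 4.92 and 5.78 CPM at 0.5 µg/ml insulin, and 4.88, 3.63 and 5.25 CPM at 1 µg/ml. At 0.5 µg/ml every library lay above every control, while library 2 at 1 µg/ml lay among the controls. The SOCS1 mean was 5.54 ± 0.543 CPM at 0.5 µg/ml, against 3.98 ± 0.490 CPM in control (SD, n = 3 each). The edgeR fold was 1.40 (95% interval 1.10 to 1.79; unadjusted p = 0.00926, adjusted p = 0.764), so SOCS1 did not pass the threshold over all genes. Of all tested genes, 529 (4.18%) were higher at 0.5 µg/ml without overlap and 364 (2.87%) were higher at an unadjusted p under 0.05.

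At 1 µg/ml insulin SOCS1 averaged 4.59 ± 0.845 CPM, against 3.98 ± 0.490 CPM in control, and the edgeR interval for the fold ran from 0.895 to 1.48 (adjusted p = 1.00). Set against 0.5 µg/ml, SOCS1 at 1 µg/ml was at a fitted ratio of 0.819, given as a description. The means of SOCS1 and SOCS3 were both highest at 0.5 µg/ml, but for SOCS3 the excess over 1 µg/ml is the value that chose the family. At 1 µg/ml the mean of SOCS1 lay above that of control and the mean of SOCS3 below it, in both cases with overlap.

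**Figure D2:**
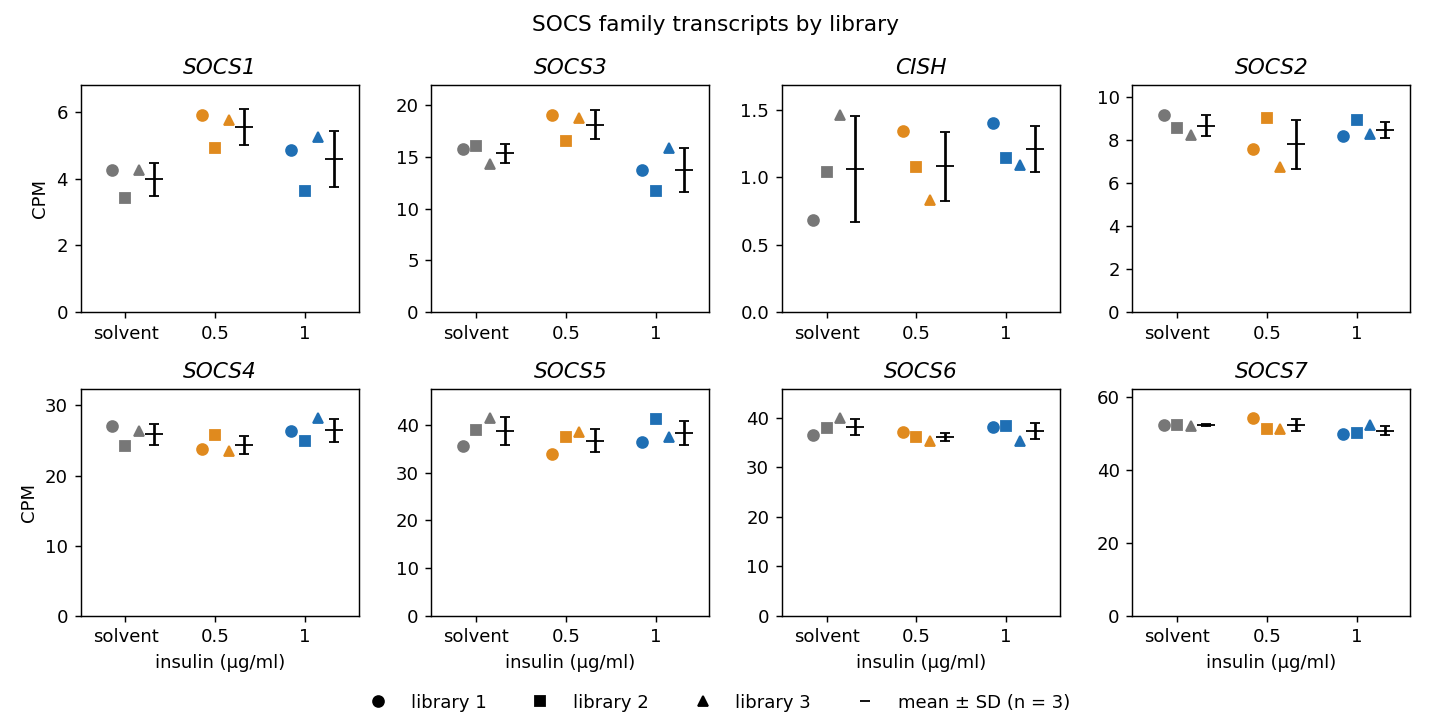
CPM of each SOCS family gene (y axes from 0, scaled per gene) against the insulin concentration in µg/ml, with 1 symbol per library and the mean ± SD of 3 libraries beside it. SOCS1 and SOCS3 reach their highest means at 0.5 µg/ml (5.54 and 18.1 CPM), and the other 6 genes overlap between all groups.

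CISH and SOCS2, the members most closely tied to STAT5, overlapped between all 3 groups. CISH competes for receptor sites that STAT5 would bind and lies at chr3:50606490-50611831 on the minus strand. CISH had 0.685, 1.04 and 1.47 CPM in control libraries 1 to 3, 1.34, 1.08 and 0.832 CPM at 0.5 µg/ml insulin, and 1.41, 1.14 and 1.09 CPM at 1 µg/ml. These are 13 to 30 counts per library, and control libraries 1 and 3 were the lowest and the highest of all 9. The edgeR interval for the CISH fold against control ran from 0.641 to 1.62 at 0.5 µg/ml and from 0.717 to 1.78 at 1 µg/ml. At this depth the counts are compatible with any fold within those intervals, and no detection limit was computed. CISH exons share 218 bases (4.26%) with exons of MAPKAPK3 on the other strand, and the strand setting of the counting is not given in the sources used here.

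SOCS2, the main brake on growth hormone receptor signalling, lies at chr12:93569814-93583487 on the plus strand. SOCS2 had 9.17, 8.56 and 8.22 CPM in control libraries 1 to 3, 7.57, 9.02 and 6.76 CPM at 0.5 µg/ml insulin, and 8.20, 8.91 and 8.26 CPM at 1 µg/ml. The lowest pair of libraries was at 0.5 µg/ml, but the third library of that group was among the highest. Its log2 fold change against control was -0.14 ± 0.12 at 0.5 µg/ml (SE; adjusted p = 0.841) and -0.04 ± 0.12 at 1 µg/ml (adjusted p = 1.00) in edgeR. SOCS2 exons share 277 bases (4.09%) with the antisense gene SOCS2-AS1, and reads of the partners cannot be told apart without strand.

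SOCS4 to SOCS7 bind growth factor receptors and their adaptors more than cytokine receptors. In CPM they were the steadiest members, and they also held the most counts. Over all libraries they had 4596 to 9305 counts, against 202 to 2828 for the other members, and more counts bring less counting error. SOCS7 (chr17:38352228-38405593, plus strand) ranged from 49.7 to 54.1 CPM over the 9 libraries and SOCS6 (chr18:70288901-70330200, plus strand) from 35.3 to 39.9 CPM. SOCS5 (chr2:46698952-46780245, plus strand) ranged from 34.0 to 41.3 CPM and SOCS4 (chr14:55027230-55049488, plus strand) from 23.5 to 28.2 CPM. In each of the 4 genes the groups overlapped in every comparison. SOCS5 has 5 processed pseudogene copies in GENCODE 29, the closest of which, SOCS5P3, is 94.6% identical over 1564 bases. How reads with several matches were counted is not given, so its level carries that uncertainty.

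For these 4 genes the intervals were narrow. At 0.5 µg/ml insulin against control, the log2 fold change was -0.08 ± 0.07 for SOCS4, -0.07 ± 0.07 for SOCS5, -0.07 ± 0.06 for SOCS6 and 0.01 ± 0.06 for SOCS7 (SE). At 1 µg/ml against control it was 0.03 ± 0.07, -0.02 ± 0.07, -0.04 ± 0.06 and -0.05 ± 0.06 for the same genes. All 8 of these fold intervals lay between 0.851 and 1.13.

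Of the 7 members other than SOCS3, edgeR called 0 at an adjusted p under 0.05 in either comparison with control (percent called over all genes 0). At an unadjusted p under 0.05 there was 1 at 0.5 µg/ml insulin (SOCS1), beside 6.08% of all genes, and 0 at 1 µg/ml, beside 2.35%. DESeq2 gave the same member counts, beside 573 and 173 of 15981 genes. At 0.5 µg/ml, 3 of the 7 were above control, with a median log2 fold change of -0.07, beside 51.9% of all genes above control and a median of 0.00447. At 1 µg/ml, 3 of the 7 were above control, with a median of -0.02, beside 49.8% of all genes and a median of -0.000217. The groups did not overlap for 1 of the 7 at 0.5 µg/ml (10.7% of all genes) and for 0 of the 7 at 1 µg/ml (7.86% of all genes). Between the doses, 5 of the 7 were higher at 1 µg/ml, beside 49.5% of all genes, and the fitted log2 differences ran from -0.29 for SOCS1 to 0.15 for CISH. The 95% interval lay within 1.5-fold of no change for 5 of the 7 at 0.5 µg/ml, SOCS1 and CISH being the others, and for 6 of the 7 at 1 µg/ml, CISH being the other. Summed over all 8 members, the family held 181 to 183 CPM at 0.5 µg/ml and 179 to 184 CPM at 1 µg/ml, against 181 to 188 CPM in control.

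**Figure D3:**
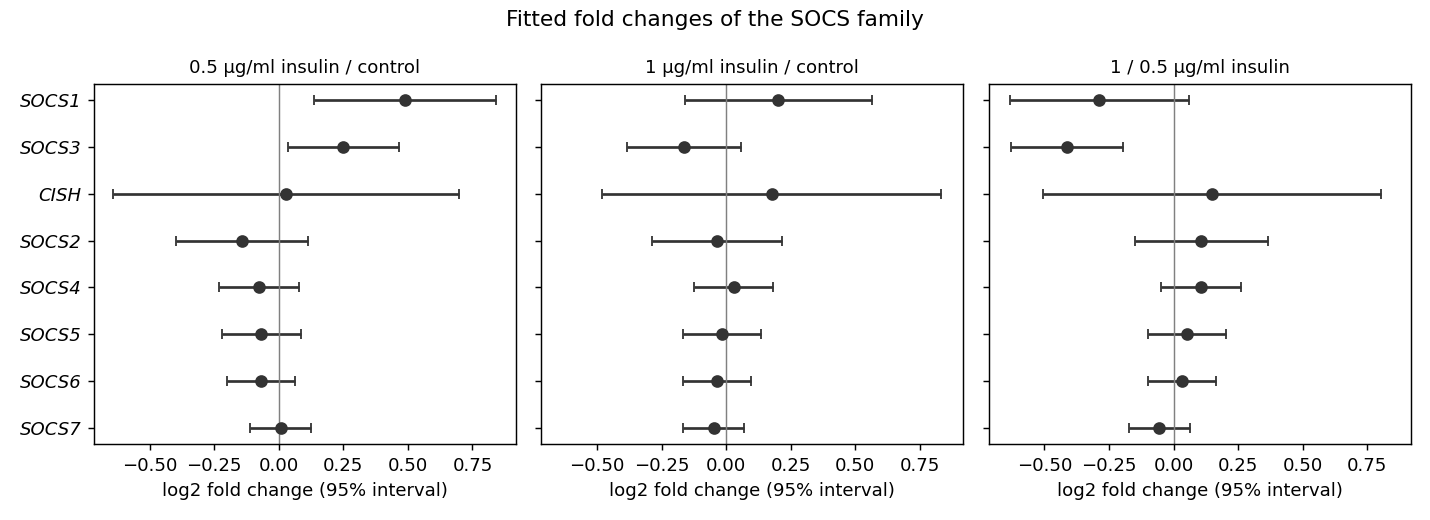
Fitted log2 fold changes (x axes) of the 8 members with 95% intervals from edgeR for 0.5 µg/ml insulin over control, 1 µg/ml over control and 1 over 0.5 µg/ml. SOCS1 lies at 0.49 in the first panel and SOCS3 at -0.41 in the third, the contrast that chose the family, while CISH has the widest intervals. The intervals of SOCS3 and of the third panel do not allow for that choice and are no test.

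The members differed in how much libraries of one group varied. Within groups, the coefficient of variation of CPM was 25.7% for CISH, 13.7% for SOCS1, 9.92% for SOCS3 and 9.09% for SOCS2. It was 6.87% for SOCS5, 5.76% for SOCS4, 3.90% for SOCS6 and 2.34% for SOCS7. Counting error alone gives 21.1% for CISH, 10.3% for SOCS1, 7.77% for SOCS2 and 5.64% for SOCS3. It gives 4.43% for SOCS4, 3.63% for SOCS5 and 3.67% for SOCS6. The spread of CISH was thus close to its counting error, and those of SOCS3 and SOCS5 were larger than theirs. SOCS7 varied less than its counting error of 3.11%.

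SOCS3 was set beside the other members across the libraries. Over the 9 libraries, log2 CPM of SOCS3 and SOCS1 had Pearson's r of 0.68 and Spearman's rho of 0.67. Without the 2 libraries farthest from the SOCS1 median, r was 0.79. After the group means were removed, r was 0.68. SOCS3 and SOCS7 had r of 0.74 and rho of 0.53. Without the 2 libraries farthest from the SOCS3 median, r was 0.45, so the SOCS7 relation rests in part on them. The relation with SOCS1 was not computed without those 2 libraries. The values of 0.79 and 0.45 therefore cannot be set against each other. With CISH, SOCS2, SOCS4, SOCS5 and SOCS6, r of SOCS3 was -0.27, -0.55, -0.32, -0.55 and -0.56. All these values of SOCS3 include the contrast that chose it and carry no test. Among the 21 pairs of the other 7 members, 0 pairs passed an exact permutation test of r at an unadjusted or adjusted p under 0.05 (smallest adjusted p = 0.615 for r and 0.600 for rho, over 21 pairs). The largest size of r there was -0.65, for SOCS1 and SOCS2 (rho = -0.55, exact p = 0.0540 and 0.133).

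**Figure D4:**
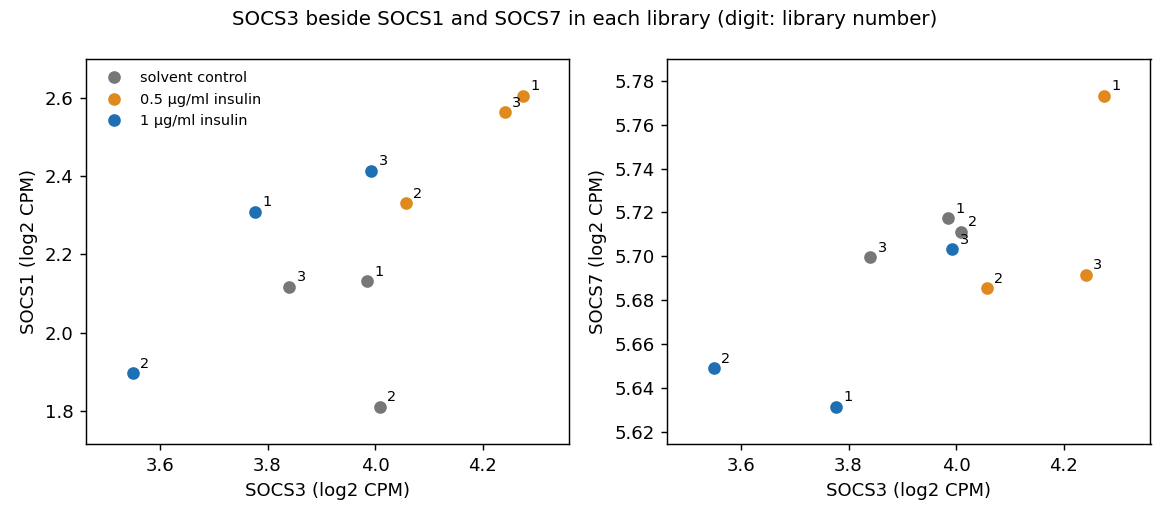
log2 CPM of SOCS1 (left) and SOCS7 (right) against log2 CPM of SOCS3 in the 9 libraries, coloured by group and marked with the library number. Library 2 at 1 µg/ml insulin is lowest for SOCS3 and library 1 at 0.5 µg/ml is highest, and r is 0.68 on the left and 0.74 on the right.

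Outside the family, 10596 genes with a mean of at least 5 CPM were ranked by Pearson's r of log2 CPM with SOCS3 over the 9 libraries. The highest were MICOS13 (r = 0.96), a subunit of the mitochondrial cristae complex, NT5C3B (0.94), a nucleotidase, SLC25A22 (0.92), a mitochondrial glutamate carrier, ULK2 (0.91), an autophagy kinase, and BRSK1 (0.90), a kinase. The lowest were HPS3 (-0.96), a subunit of a complex in lysosome-related organelle biogenesis, G3BP1 (-0.95), a stress granule protein, and VPS33A (-0.94), a vesicle tethering protein. Without library 2 at 1 µg/ml and library 1 at 0.5 µg/ml, which lay farthest from the SOCS3 median, r ran from 0.78 (BRSK1) to 0.91 (ULK2) for the first 5 and from -0.97 (G3BP1) to -0.88 (VPS33A) for the last 3. The named genes are the extremes of this ranking, so their r without those 2 libraries is no independent check. Of the 10596 genes, 39 passed an absolute r of 0.85, and how many unrelated genes would pass was not computed. The SOCS3 values include the contrast that chose it, and the ranking is a description of 9 libraries.

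Parts of the pathway around the family were near or under the filter. Of the genes in the table, 10 of 17 ligands and 19 of 23 cytokine receptors passed it, and the ligand OSM (6 counts over all libraries) and the growth hormone receptor GHR (33 counts) did not. IL6R, the receptor that binds interleukin-6, was at 0.159 FPKM on 87 counts in all. No member of the 11 lists of pathway genes was called in either comparison with control, and the counts below are read beside the 51.9% and 49.8% of all genes that lay above control at 0.5 and 1 µg/ml insulin. Among ligands, IL6 was at 6.68 FPKM and LIF, a related cytokine, at 11.03 FPKM. IL6 averaged 12.1 ± 2.32 CPM at 0.5 µg/ml and 11.2 ± 0.974 CPM at 1 µg/ml insulin, against 10.7 ± 1.66 CPM in control (SD, n = 3 each). Of 10 tested ligands, 6 were above control at each dose. CLCF1, another ligand of the family, had the smallest p at 1 µg/ml (log2 fold change 0.31 ± 0.12 SE, edgeR unadjusted p = 0.0226, adjusted p = 1.00).

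Of the 19 tested cytokine receptor genes, 9 were above control at 0.5 µg/ml and 10 at 1 µg/ml, with medians of -0.01 and 0.01. IL6ST, which encodes gp130, the receptor subunit that SOCS3 binds, was at 27.3 FPKM. IL6ST averaged 231 ± 8.03 CPM at 0.5 µg/ml insulin and 259 ± 19.9 CPM in control, a log2 difference of -0.15 ± 0.05 (edgeR unadjusted p = 0.00796, adjusted p = 0.764). The groups overlapped in IL6ST. OSMR, the oncostatin M receptor, was at 36.3 FPKM and LIFR, the LIF receptor, at 2.04 FPKM, with log2 fold changes between -0.07 and 0.03 at either dose. PRLR, the prolactin receptor, had the smallest receptor p at 1 µg/ml, at 0.996 ± 0.221 CPM against 1.54 ± 0.272 CPM in control (edgeR unadjusted p = 0.0351, adjusted p = 1.00), on a total of 231 counts.

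JAK1 was at 36.1 FPKM and JAK2 at 3.24 FPKM, while STAT3, the factor downstream of gp130, was at 43.2 FPKM. STAT5B was at 7.99 FPKM and STAT5A at 4.02 FPKM. Of 9 tested JAK and STAT genes, 5 were above control at 0.5 µg/ml insulin (median log2 fold change 0.01) and 1 at 1 µg/ml (median -0.05). All 9 had a 95% interval within 1.5-fold of no change in both comparisons. STAT3 averaged 223 ± 3.60 CPM at 0.5 µg/ml and 212 ± 5.25 CPM at 1 µg/ml insulin, against 219 ± 8.35 CPM in control, and its groups overlapped.

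The SOCS box machinery was also steady. All 8 genes of the ligase, among them ELOB (91.1 FPKM), ELOC (21.8 FPKM) and CUL5 (6.27 FPKM), had a 95% interval within 1.5-fold of no change in both comparisons, and 5 of 8 were above control in each. CUL5 averaged 40.2 ± 1.91 CPM at 0.5 µg/ml insulin and 44.8 ± 3.73 CPM in control (edgeR unadjusted p = 0.0501, adjusted p = 0.792). UBE2M, which conjugates NEDD8 to cullins, had the smallest p of the ligase list at 0.5 µg/ml (log2 fold change 0.12 ± 0.05, adjusted p = 0.792), and NEDD8 itself at 1 µg/ml (0.13 ± 0.06, adjusted p = 1.00). Of 12 tested genes for other SOCS box proteins, 7 were above control at 0.5 µg/ml and 5 at 1 µg/ml. WSB1, one of them, was at 161 ± 5.85 CPM at 0.5 µg/ml and 180 ± 2.93 CPM in control without overlap (edgeR unadjusted p = 0.00469, adjusted p = 0.764), and 825 of all genes (6.51%) were lower there without overlap.

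Known STAT targets other than the SOCS genes were counted next. Of 15 tested STAT3 targets, 10 were above control at 0.5 µg/ml insulin (median 0.06) and 5 at 1 µg/ml (median -0.01). JUNB, an immediate early transcription factor, was at 54.8 ± 1.55 CPM at 0.5 µg/ml and 47.3 ± 2.67 CPM at 1 µg/ml, against 47.2 ± 1.57 CPM in control. Its log2 fold change at 0.5 µg/ml was 0.22 ± 0.06, without overlap (edgeR unadjusted p = 0.00152, adjusted p = 0.764). Of 7 tested STAT5 targets, whose list shares 4 genes with the STAT3 list, 6 were above control at 0.5 µg/ml and 2 at 1 µg/ml. MCL1, a survival factor in both lists, averaged 566 ± 9.54 CPM at 1 µg/ml insulin and 596 ± 6.19 CPM in control (adjusted p = 1.00).

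Inhibitors outside the family were counted in the same way. Of 12 tested inhibitors such as the PIAS proteins and the phosphatases PTPN1, PTPN2 and PTPN11, 3 were above control at 0.5 µg/ml and 2 at 1 µg/ml, with medians of -0.03 at each dose. PIAS2, a SUMO ligase, was at 23.3 ± 1.88 CPM at 0.5 µg/ml and 26.5 ± 1.41 CPM in control (edgeR unadjusted p = 0.0299, adjusted p = 0.792). Of 15 feedback inhibitors of other pathways, 8 were above control at 0.5 µg/ml and 5 at 1 µg/ml. SPRED1, an inhibitor of Ras signalling, had a log2 fold change of -0.14 ± 0.06 at 0.5 µg/ml (adjusted p = 0.792), and ZFP36, which destabilises cytokine transcripts, one of -0.29 ± 0.13 at 1 µg/ml (adjusted p = 1.00).

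The insulin receptor and its substrates, which several SOCS proteins bind, were present. INSR was at 1.52 FPKM, IGF1R at 4.97 FPKM, IRS1 at 1.86 FPKM and IRS2 at 5.57 FPKM. Of 9 tested genes of this list, 6 were above control at 0.5 µg/ml and 4 at 1 µg/ml. IRS2 averaged 41.2 ± 2.77 CPM at 1 µg/ml insulin and 46.8 ± 4.88 CPM in control, with overlap (log2 fold change -0.19 ± 0.08, edgeR unadjusted p = 0.0207, adjusted p = 1.00). Of 6 tested growth factor receptors that SOCS proteins target, 3 were above control at 0.5 µg/ml and 5 at 1 µg/ml. KIT, a SOCS6 target, was at 2.31 ± 0.0469 CPM at 1 µg/ml and 1.83 ± 0.200 CPM in control without overlap (adjusted p = 1.00), and ERBB2 at 79.9 ± 1.58 CPM and 76.6 ± 1.14 CPM, also without overlap (adjusted p = 1.00). At 1 µg/ml, 540 of all genes (4.26%) were higher without overlap.

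**Figure D5:**
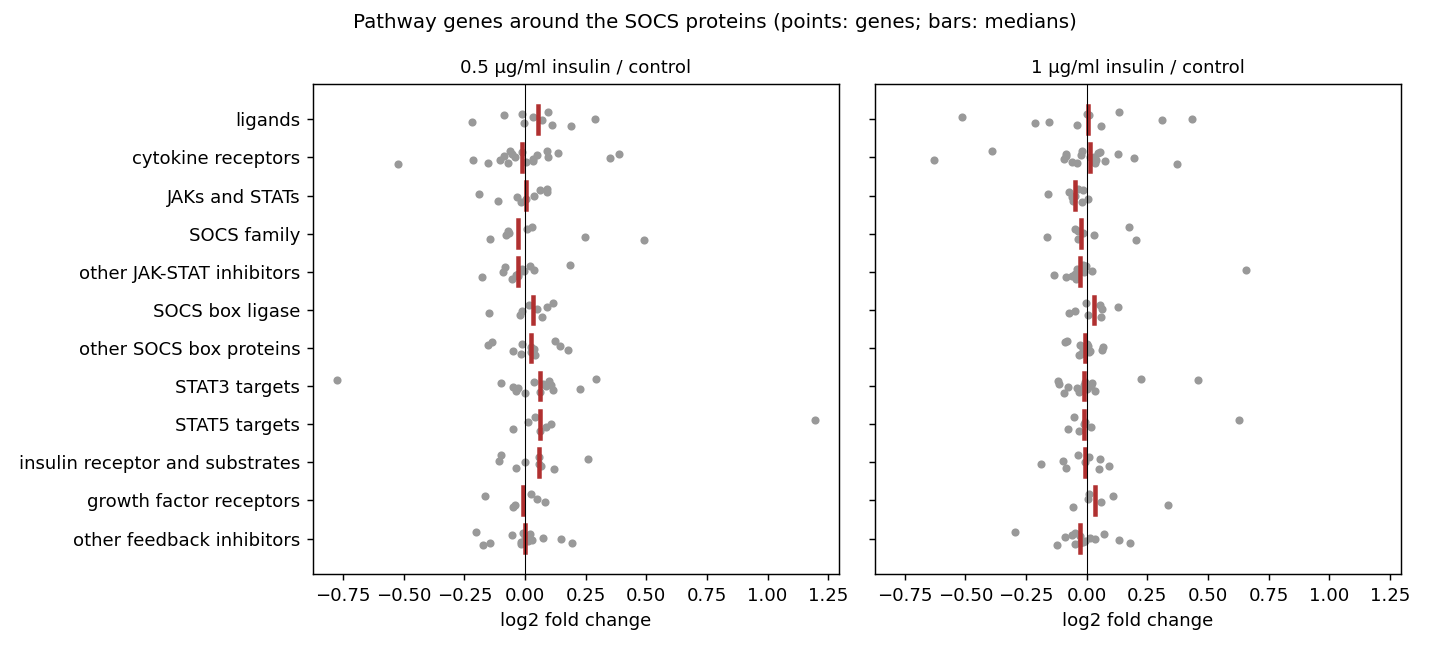
log2 fold changes against control (x axes) of the tested genes of the SOCS family and the 11 pathway lists, at 0.5 µg/ml insulin (left) and 1 µg/ml (right), with 1 point per gene and a bar at the median of each list. The medians lie between -0.03 and 0.06 on the left and between -0.05 and 0.03 on the right, and the SOCS family row includes SOCS3.

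Most granulosa markers were expressed, and some markers listed for other cell types were too. FOXL2 and FSHR, which define the lineage, had means of 26.2 and 18.1 CPM, and GATA4, the most abundant granulosa marker, had 171 CPM. Of 15 granulosa markers 14 passed the filter, while AMHR2, on 34 counts in all, did not. Summed granulosa markers ran from 502 to 524 CPM at 0.5 µg/ml and from 505 to 539 CPM at 1 µg/ml insulin, against 493 to 541 CPM in control. Of 12 leukocyte markers 3 passed the filter, 3 were under it and the symbols of the others were not found in the count table. The defining CD14, LYZ and ITGAM held 28, 5 and 7 counts over all 9 libraries. CD68 and CD74, at 58.0 and 57.9 CPM, are not particular to leukocytes. PTPRC, the leukocyte marker CD45 and also a JAK phosphatase, was at 2.36 ± 0.748 CPM at 1 µg/ml and 1.49 ± 0.281 CPM in control (edgeR unadjusted p = 0.0371, adjusted p = 1.00). Of 7 endothelial markers 2 passed the filter, KDR at 18.3 CPM and VWF at 1.27 CPM, while PECAM1 held 53 counts. Of 8 epithelial markers 6 passed, among them KRT8 at 55.1 CPM, KRT7 at 21.6 CPM and CDH1 at 4.99 CPM, while EPCAM held 7 counts. Of 4 theca markers PTCH1 passed, at 7.43 CPM, while CYP17A1, LHCGR and INSL3 held 1 count each. The inhibin subunit INHA was at 0.881 ± 0.116 CPM at 1 µg/ml and 0.400 ± 0.162 CPM in control without overlap (unadjusted p = 0.0128, adjusted p = 1.00), on 118 counts in all. NR5A1, a steroidogenic factor, was at 64.8 ± 0.768 CPM at 0.5 µg/ml and 59.6 ± 3.01 CPM in control, also without overlap (unadjusted p = 0.0330, adjusted p = 0.792). KRT18, a keratin that is also common outside epithelia, was at 1755 CPM. Summed leukocyte markers ran from 114 to 121 CPM at 0.5 µg/ml and from 108 to 125 CPM at 1 µg/ml, against 101 to 131 CPM in control, so this sum overlapped between all groups. STAT6, STAT2, RAB40C, CCND2, PIK3R1, CD68, VWF, KRT7, CDH1 and PTCH1 had the smallest p of their lists in a comparison with control, at adjusted p-values of 0.792 to 1.00 in edgeR.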

How the data were processed

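Total RNA of 9 KGN libraries (3 per group) was extracted with TRIzol and sequenced from VAHTS Universal V6 libraries, per the labels. The authors deposited raw counts per gene and FPKM for the same genes. Trimmomatic, HTSeq, DESeq and hg38 are named without versions or roles, per the submitters' processing notes, and neither the aligner nor the strand setting is given in the sources used here. For all 11053 genes with at least 50 counts per library, the deposited FPKM were the counts rescaled by 1 whole-number length (tolerance 1e-06), so FPKM served for levels between genes and an alternative.

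Counts were filtered with filterByExpr (minimum count 10, minimum total 15) in edgeR 4.0.16 (R 4.3.3), scaled by TMM and fitted in 1 model of 3 groups. The two-sided quasi-likelihood F-test was adjusted over all 12665 tested genes. CPM use deposited totals. Intervals are 95%. The scripts were tested on simulated data.

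The members, gene lists and tests were chosen with earlier results of these data known. Named genes were all members, fixed genes of the insulin and JAK-STAT pathways, the member of smallest p of each list in each comparison with control, the 5 highest and 3 lowest r with SOCS3, and the most abundant and near-absent markers. 1 gene and 1 list of the pathway are not reported here. Positions are from GENCODE 29. Alternatives were RLE scaling, DESeq2 1.42.0 without a filter, no filter, a filter of 1 CPM in 3 libraries, the compared groups alone, a replicate block, limma 3.58.1 on log2(FPKM + 0.1) or log2(FPKM + 1), and leaving out each library. Counting intervals cover counting error only, and a count of 0 allows up to 3 counts, or 0.158 CPM at the smallest total.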

Additional observations from a re-analysis of the deposited data

How the results depend on the processing

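SOCS members called remained 0 against control under all 17 alternatives at each dose. With no count filter, edgeR called 6 genes for 0.5 µg/ml insulin against control, 3 for 1 µg/ml against control and 4 between the doses; filtering removed genes of low counts. Leaving out 1 library gave 0 to 1, 0 to 0 and 0 to 2 called genes. The SOCS3 log2 difference between the doses ran from -0.53 (without library 3 at 1 µg/ml) to -0.31 (without library 2 there), and from -0.41 to -0.34 under the other settings. The SOCS1 log2 fold change at 0.5 µg/ml ran from 0.39 to 0.57 without 1 library and from 0.38 to 0.49 otherwise, with a smallest adjusted p of 0.393. SOCS3 at 1 µg/ml against control ran from -0.28 to -0.056 without 1 library.

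The sign of a fitted change against control reversed for 6 members. At 0.5 µg/ml SOCS7 was at -0.00250 and -0.00215 in limma with pseudocounts of 0.1 and 1 FPKM, and ranged from -0.021 to 0.023 without 1 library, and CISH from -0.20 to 0.33. At 1 µg/ml the ranges without 1 library were -0.074 to 0.011 for SOCS2, -0.018 to 0.071 for SOCS4, -0.069 to 0.034 for SOCS5, -0.061 to 0.00148 for SOCS6 and -0.048 to 0.48 for CISH. Between the doses, SOCS5 reached -0.00299 and CISH -0.012 at their lowest. The cause was not tested.

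With GENCODE exon lengths, chosen after seeing the data, the log2 level of SOCS5 over SOCS7 was -0.27, of SOCS7 over SOCS6 -0.050 and of SOCS1 over SOCS4 -0.49, all positive in FPKM.

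Whether replicate numbers pair the samples was not tested. The correlation of deviations between same-numbered libraries ran from -0.01 to 0.16, with 1 of 9 pairs over 0.1. Of the 9 libraries, 7 correlated best with a library of their own number, and how many would do so by chance was not computed. With the replicate block, edgeR called 0 genes in each comparison. At an unadjusted p under 0.05 there were 971, 343 and 891 genes with the block, against 770, 298 and 714 without it. The block gave -0.41 for SOCS3 between the doses and 0.49 for SOCS1 at 0.5 µg/ml (edgeR unadjusted p = 0.00413, adjusted p = 0.571). Depth limits CISH most, at 13 to 30 counts per library.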
